A study of Mus musculus with 3 samples.

Results

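The 10 genes described here encode cytokines, chemokines and growth factors that mast cells are known to make, namely *Il4*, *Il13*, *Il6*, *Csf2*, *Tnf*, *Ccl2*, *Ccl3*, *Ccl4*, *Tgfb1* and *Vegfa*. They were taken by gene name from the array's own annotation, which gave 12 of 41174 probes and 10 of 27962 gene names. A single probe was present for 9 of the genes and 3 for *Vegfa*, and every probe is reported. Expression was measured on 3 Agilent whole-mouse arrays with 2 dyes, each hybridized with cDNA of 1 WT culture (Cy3) and 1 *p85α−/−* culture (Cy5), so that n = 3 cultures per genotype, each from a separate mouse. Marrow mononuclear cells were grown for 7 days in 10 ng/mL of IL-3, sorted as positive for both KIT and the IgE receptor, and stimulated for 48 hours with 100 ng/mL of SCF, the ligand of KIT. The study calls them mast cell progenitors (MCps). Both genotypes had the same culture, sort and SCF stimulation, and the 3 arrays hold no culture without SCF or with IgE crosslinking. The mice lack p85α, a regulatory subunit of class IA PI3K. Strain, age and sex of the mice are not given in the sources used here.

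Mast cells release stored mediators within minutes of activation and then transcribe and secrete cytokines over hours. Crosslinking of the IgE receptor is the best known trigger of this second phase, and KIT signalling through PI3K can add to it. The chemokines CCL2, CCL3 and CCL4 draw monocytes and other leukocytes into tissue, whereas IL-4 and IL-13 drive type 2 immunity. Transcription of many of these genes is known to depend on NFAT, NF-κB and AP-1 factors.

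Of the 10 genes, *Ccl3* alone passed the study's stated limits, at least 1.5-fold with an unadjusted p under 0.05, and it was higher in *p85α−/−* MCps by 3.95-fold on the normalized scale (log2 ratio 1.98 ± 0.45, SD, n = 3). Its WT signal was well above background on 1 of the 3 arrays, so the size of this ratio depends on how background was treated. The neighbouring chemokine *Ccl4* had a mean of similar size (log2 ratio 2.12 ± 1.94) with a far wider spread, and *Tgfb1* was higher on every array by a smaller amount (0.58 ± 0.38). *Tnf* (−0.67 ± 0.66) and the brightest of the 3 *Vegfa* probes (−1.70 ± 2.15) were lower on every array without passing, whereas the other *Vegfa* probes did not keep one sign. The type 2 cytokines *Il4* and *Il13*, along with *Il6*, *Csf2* and *Ccl2*, did not keep one sign across the arrays. No gene had an adjusted p under 0.05 by limma's test with Benjamini-Hochberg adjustment over all 41157 probes tested, where the calls were 0% of probes and the lowest adjusted p was 0.763.

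The channels have limits that touch every value below. Few cells were sorted, so the cDNA was amplified by global PCR before it was labelled. The dyes were not swapped on any array, so dye and genotype cannot be told apart, and in bulk cultures fewer cells of a type and less RNA per cell cannot be told apart. The share of spots well above background was 69.4% to 85.3% in the WT channel and 77.3% to 93.8% in the *p85α−/−* channel, and the median signal was 71.5 to 141.2 for WT and 206.6 to 517.3 for *p85α−/−*. The log2 ratios of different arrays were nearly unrelated across probes (Pearson's r of 0.0088, 0.17 and −0.028). *Pik3r1* encodes p85α as well as p55α and p50α. Its 4 probes had mean log2 ratios of 0.59, −0.58, 0.32 and −0.04 and leave the genotype of each channel unchecked. On the probe at −0.58 every *p85α−/−* level was below every WT level, as for 5.94% of all probes. The probe at 0.32 was higher in *p85α−/−* on all 3 arrays, as were 12.5% of all probes. Directions are therefore those of the cultures labelled *p85α−/−* against those labelled WT. The SCF-treated sorted cells carried mast cell markers in both genotypes. The markers *Kit* (log2 ratio 2.06 ± 0.56), *Fcer1g* (1.76 ± 0.82), *Cma1* (2.37 ± 1.76) and *Srgn* (1.48 ± 0.60) passed the limits as higher in *p85α−/−*, among 14 mast cell markers of which 13 had a mean above 0, beside 2.78% and 44.8% of all probes. *Cma1* and *Srgn* no longer passed without replicate 1 or without replicate 2, and the other *Cma1* probe was lower on replicates 1 and 3 (log2 ratios −0.014, 4.32 and −0.40). The summed linear level of the 14 markers was 43767 to 73123 in WT and 115660 to 185680 in *p85α−/−* cultures. *Cma1* made up 10.8% to 55.4% of it, and without *Cma1* it was 29932 to 63735 and 82897 to 113670. Its part in the results below was not tested.

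Promoter sequences are shown for the member that passed and for the genes with the most uniform *p85α−/−* levels (*Tnf*) and the widest spread between arrays (*Il6*). They are the 250 bases before the start site in RefSeq on GRCm38.p6, read 5′ to 3′ along the gene, at chr11:83649379-83649628 (minus strand) for *Ccl3*, chr17:35202008-35202257 (minus strand) for *Tnf* and chr5:30012864-30013113 (plus strand) for *Il6*. Capitals mark matches to the motifs searched.
Ccl3: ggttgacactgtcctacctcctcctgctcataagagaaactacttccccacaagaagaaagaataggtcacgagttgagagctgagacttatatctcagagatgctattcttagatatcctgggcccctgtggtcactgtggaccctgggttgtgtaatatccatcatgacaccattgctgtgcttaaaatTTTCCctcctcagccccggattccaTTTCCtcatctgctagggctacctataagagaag
Tnf: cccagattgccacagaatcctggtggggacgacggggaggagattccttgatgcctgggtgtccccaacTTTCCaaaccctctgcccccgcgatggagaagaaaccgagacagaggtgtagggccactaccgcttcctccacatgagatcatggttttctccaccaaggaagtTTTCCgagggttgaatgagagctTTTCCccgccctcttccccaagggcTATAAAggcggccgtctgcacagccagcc
Il6: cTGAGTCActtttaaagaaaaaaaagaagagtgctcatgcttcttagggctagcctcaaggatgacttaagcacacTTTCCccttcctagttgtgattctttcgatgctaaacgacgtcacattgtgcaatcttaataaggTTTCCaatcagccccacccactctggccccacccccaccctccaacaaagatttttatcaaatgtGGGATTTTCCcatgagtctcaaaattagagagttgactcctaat

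Motifs were searched on both strands in the promoters of 8 members, some with more than 1 start site. A member was counted if any of its windows had a match, whereas the percentages below are of single windows, so the units differ. *Ccl2* and *Ccl4* had no entry. The NFAT core GGAAA, read as TTTCC on the other strand, was found for 7 of 8 members, all but *Tgfb1*, and in 55.6% of 32851 promoter windows of the same length. In the *Ccl3* promoter it lay 59 and 34 bases before the start site, and in the *Tnf* promoter 181, 77 and 54 bases before it, upstream of a TATA box (TATAAA) at 29. The NF-kappaB consensus, in 7.25% of all windows, was found for *Il6*, *Tgfb1* and *Vegfa*. In *Il6* it lay 44 bases before the start site and overlapped an NFAT core match at 39. The AP-1 motif TGANTCA (6.75% of all windows) was found for *Il6* only, at 249, the TATA box (12.4%) for *Tnf* and *Il13*, and the hypoxia core ACGTG (16.6%) for *Vegfa*. A match describes letters in the window and is not a measured binding site.

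*Ccl3* encodes MIP-1α, a chemokine that attracts monocytes and other leukocytes. Its probe, at chr11:83717761-83717820 in the annotation of the array (genome build not given there), had normalized log2 levels of 7.12, 6.47 and 8.05 in WT replicates 1 to 3 and of 9.34, 7.94 and 10.31 in *p85α−/−* replicates 1 to 3. On each array the *p85α−/−* culture was the higher, while the groups overlapped, since WT replicate 3 lay above *p85α−/−* replicate 2. The log2 ratios were 2.22, 1.46 and 2.26, with a mean of 1.98 (95% confidence interval 1.13 to 2.83, unadjusted p = 0.00332, adjusted p = 0.763 by limma). Probes past both limits in this direction were 2.78% of all probes. Before normalization the WT spot gave 42.2, 36.7 and 182 against a local background of 29, 37 and 33, so that only WT replicate 3 was well above background. The *p85α−/−* spot gave 1001, 587 and 2246 and was well above background on all 3 arrays. The ratio rests on 1 spot per array and, with WT near background on replicates 1 and 2, on the background treatment, being 2.44 with no background subtraction and 3.87 with the scanner software's processed signals. With the test named in the study's methods, 0 of the 10 genes passed when it was run unpaired and 1 when it was run paired.

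*Ccl4* encodes MIP-1β, a chemokine whose gene lies beside *Ccl3*. Its WT levels were 9.95, 8.04 and 8.48 and its *p85α−/−* levels 11, 8.99 and 12.85 on replicates 1 to 3. The highest value was *p85α−/−* replicate 3, and the remaining *p85α−/−* cultures lay closer to the WT cultures, with which replicate 2 overlapped. The log2 ratios were 1.05, 0.95 and 4.36 (mean 2.12, interval −0.32 to 4.56, unadjusted p = 0.0724, adjusted p = 0.908 by limma), and without replicate 3 the mean was 0.997. With median centring of the channels in place of quantile normalization it was 3.19 and passed both limits. Both chemokines were highest in *p85α−/−* replicate 3 and lowest, among *p85α−/−* cultures, in replicate 2.

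The summed level of 9 neutrophil markers followed the same order among *p85α−/−* cultures, at 70270, 7404.9 and 234510 on replicates 1 to 3, against 10671, 19887 and 9333 in WT. *Mpo*, myeloperoxidase, made up 22.1% to 85.3% of this sum over the 6 cultures, and without it the sum was 24678, 5766 and 36882 in *p85α−/−* and 4566, 2919 and 4630 in WT cultures. The order was shared by 5 of the 9 markers, and its share over all probes was not computed. Mean log2 ratios were above 0 for 6 markers and below for 3, where 44.8% of all probes were above 0. On all 3 arrays 3 markers were higher and 0 lower, beside 12.5% and 13.3% of all probes, and 6 did not keep one sign. Of the 9 markers *S100a8* (log2 ratio 2.14 ± 1.56) and *S100a9* (2.55 ± 1.79), calcium-binding proteins abundant in neutrophils, passed the limits as higher in *p85α−/−*, beside 2.78% of all probes. They did not pass without replicate 1, without replicate 3 or with no replicate block. In WT, *Ccl3* and *Ccl4* were at their lowest in replicate 2, where the neutrophil sum was the highest with *Mpo* and the lowest without it. For *Ccl3*, WT replicates 1 and 2 were both near background, so their order is not a measured one. None of the 9 neutrophil markers was at background in all 6 channels. Their part in the chemokine values was not tested.

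*Ccl2* encodes MCP-1, which recruits monocytes through CCR2. Its WT levels were 11.28, 11.59 and 11.97 and its *p85α−/−* levels 10.51, 12.34 and 11.50. The *p85α−/−* cultures lay on both sides of the WT cultures. The mean log2 ratio was −0.16 ± 0.80 (interval −1.33 to 1.003, adjusted p = 0.965 by limma), with replicate 2 higher and replicates 1 and 3 lower, and it was 0.14 without replicate 1 and 0.82 with median centring. The 3 chemokines thus did not share one pattern, although all lie on chromosome 11.

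**Figure D1:**
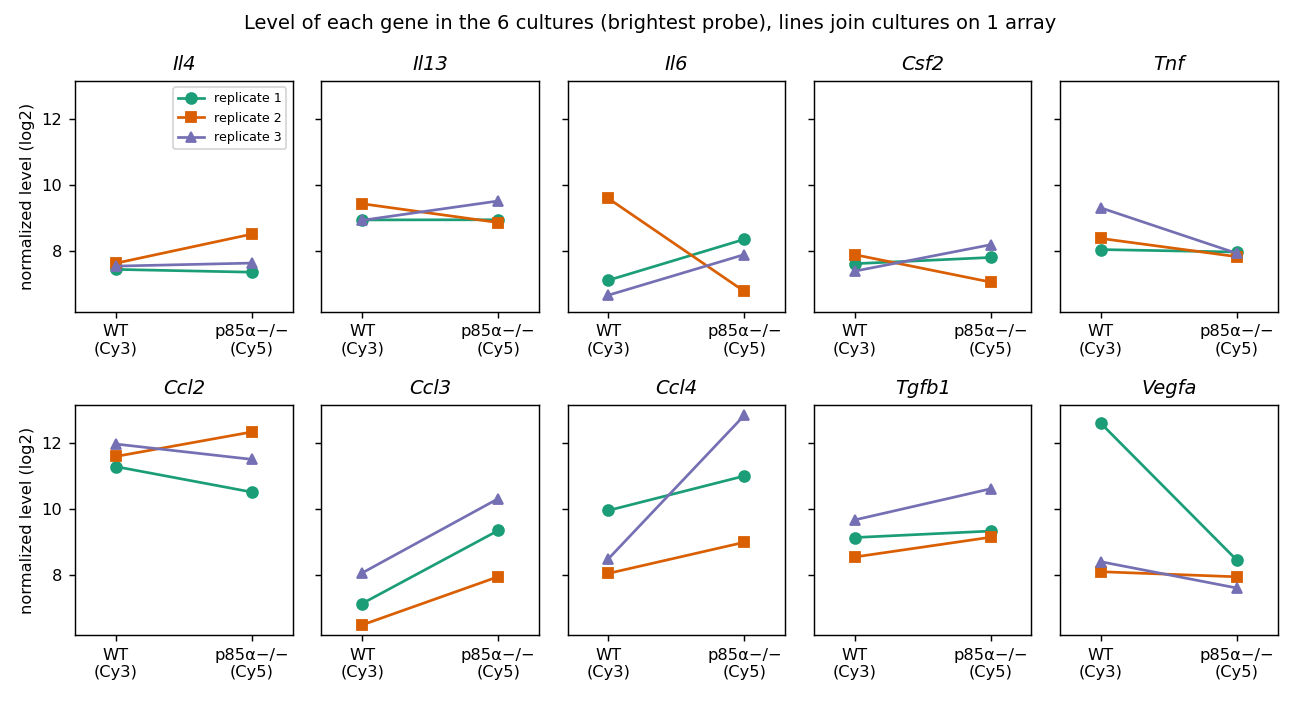
Normalized log2 level (y axis) of the brightest probe of each gene in WT (Cy3) and *p85α−/−* (Cy5) cultures, with a line joining the cultures of 1 array. Levels are read within a panel only, since probes differ in brightness. All 3 lines slope upward for *Ccl3*, *Ccl4* and *Tgfb1*, and the *Il6* line of replicate 2 crosses the others.

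*Tnf* encodes TNF, which mast cells can both store and synthesize. Its WT levels were 8.04, 8.38 and 9.31 and its *p85α−/−* levels 7.97, 7.83 and 7.93. The *p85α−/−* cultures were nearly alike (SD 0.073) and the WT cultures were not (SD 0.66), and every *p85α−/−* level was below every WT level. This was the only member whose groups did not overlap, which held in this direction for 5.94% of all probes, while 4.54% of probes had every *p85α−/−* level above every WT level. The mean log2 ratio of −0.67 (interval −1.70 to 0.36, unadjusted p = 0.142, adjusted p = 0.908 by limma) came mostly from replicate 3, with −0.08, −0.55 and −1.38 on replicates 1 to 3, and was −0.31 without it.

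*Il4* and *Il13* encode the type 2 cytokines that act through the shared receptor chain IL-4Rα. *Il4* levels were 7.44, 7.63 and 7.54 in WT and 7.36, 8.51 and 7.63 in *p85α−/−* cultures. Only *p85α−/−* replicate 2 stood apart, and the mean log2 ratio was 0.30 ± 0.52 (interval −0.60 to 1.20, adjusted p = 0.910 by limma) and 0.0041 without replicate 2. *Il13* levels were 8.94, 9.44 and 8.93 in WT and 8.95, 8.86 and 9.52 in *p85α−/−* cultures. The highest *Il13* culture of each genotype was on a different array, and the log2 ratios of 0.0052, −0.57 and 0.59 averaged 0.0073 (interval −0.95 to 0.96, adjusted p = 0.999 by limma).

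*Il6* encodes interleukin-6, an inducer of acute phase and lymphocyte responses. Its WT levels were 7.11, 9.60 and 6.66 and its *p85α−/−* levels 8.36, 6.77 and 7.89. WT replicate 2 was the highest of the 6 cultures, and on that array the log2 ratio was −2.82 against 1.24 and 1.23 on replicates 1 and 3. The mean was −0.12 ± 2.35 (interval −3.02 to 2.79, adjusted p = 0.992 by limma), and without replicate 2 it was 1.24 (unadjusted p = 0.0261), past both limits but with WT near background on both arrays that remain. Of the 10 spots of the probe, 5, 10 and 2 were well above background in WT replicates 1 to 3, and all 10 were in each *p85α−/−* culture.

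*Csf2* encodes GM-CSF, a growth factor of granulocytes and macrophages. WT cultures had *Csf2* levels of 7.61, 7.89 and 7.39 and *p85α−/−* cultures had levels of 7.80, 7.06 and 8.19. The *p85α−/−* cultures spanned the WT range on both sides. The mean log2 ratio was 0.053 ± 0.83 (interval −1.14 to 1.25, adjusted p = 0.992 by limma), with a lower *p85α−/−* level on replicate 2 only.

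**Figure D2:**
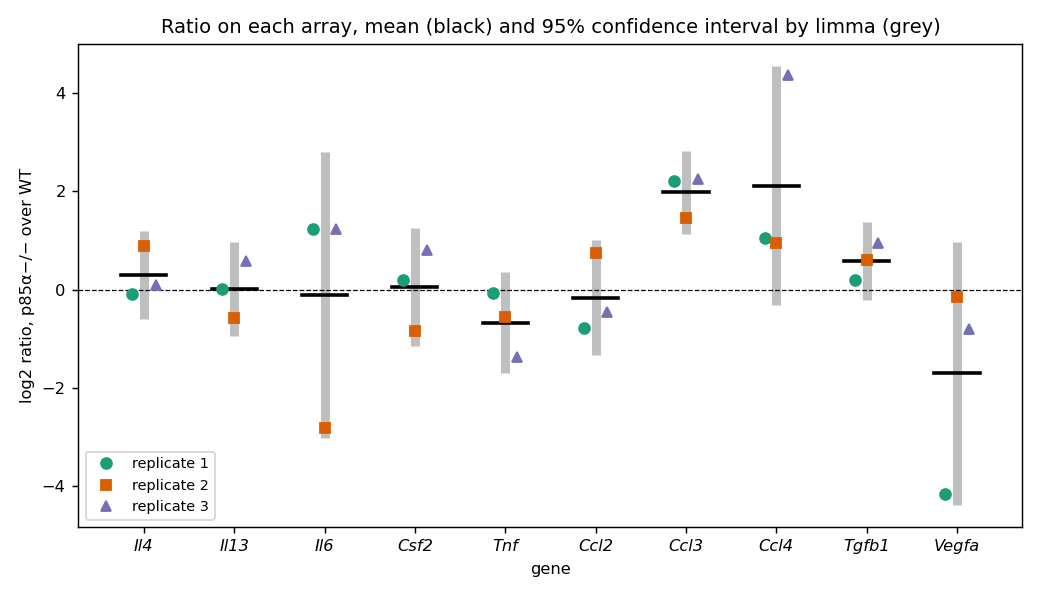
Log2 ratio of *p85α−/−* over WT (y axis) on each of the 3 arrays for the 10 genes (x axis), with the mean as a black bar and limma's 95% confidence interval in grey. Only the interval of *Ccl3* (1.13 to 2.83) lies wholly on one side of 0.

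*Tgfb1* encodes TGF-β1, which restrains mast cell and lymphocyte activation and promotes fibrosis. *Tgfb1* levels were 9.13, 8.54 and 9.66 in WT and 9.33, 9.14 and 10.61 in *p85α−/−* cultures. Each *p85α−/−* culture was above the WT culture of its own array, while the groups overlapped. The mean log2 ratio was 0.58 (interval −0.21 to 1.37, unadjusted p = 0.109, adjusted p = 0.908 by limma), and 1.37 with median centring, which passed both limits.

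*Vegfa* encodes VEGF-A, which drives vessel growth and permeability, and was read by 3 probes. The brightest, with 1 spot, had WT levels of 12.60, 8.09 and 8.39 and *p85α−/−* levels of 8.44, 7.94 and 7.60. WT replicate 1 stood far above the other 5 cultures. Its log2 ratios of −4.16, −0.15 and −0.80 averaged −1.70 (interval −4.38 to 0.98, unadjusted p = 0.149, adjusted p = 0.908 by limma), and without replicate 1 the mean was −0.48. The next probe, with 10 spots, had WT levels of 8.77, 8.21 and 7.61 and *p85α−/−* levels of 8.17, 7.18 and 7.95. It was lower in *p85α−/−* on replicates 1 and 2 and higher on replicate 3, with a mean log2 ratio of −0.43 ± 0.70 (adjusted p = 0.908 by limma). The dimmest probe was well above background in 3 of 6 channels and had a mean log2 ratio of −0.061 ± 0.23. WT replicate 1 was also the highest of the 6 cultures on the probe with 10 spots, where its log2 ratio was −0.60, and on the dimmest probe neither culture of replicate 1 was well above background. The mean over the 3 probes was −0.73.

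**Figure D3:**
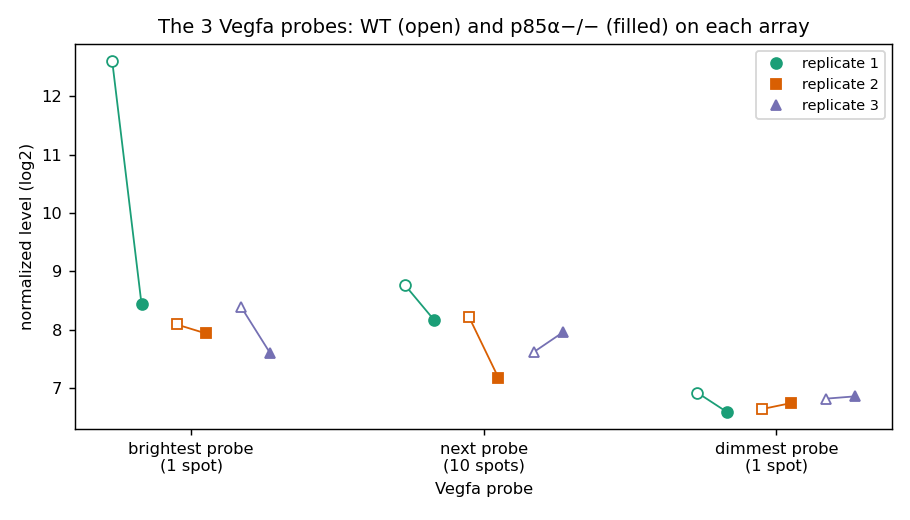
Normalized log2 level (y axis) of the 3 *Vegfa* probes (x axis) in WT (open) and *p85α−/−* (filled) cultures, with a line for each array. WT replicate 1 is the highest culture on the brightest and the next probe, with a log2 ratio of −4.16 on the former and −0.60 on the latter.

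Counted together, 1 of the 10 genes passed both limits as higher and 0 as lower, where 2.78% and 1.66% of all probes did so. On all 3 arrays *Ccl3*, *Ccl4* and *Tgfb1* were higher, as were 12.5% of all probes, and *Tnf* and *Vegfa* were lower on all 3, as were 13.3%. The median of the 10 mean log2 ratios was 0.030, against −0.049 for all probes, and 6 means were above 0, as were 44.8% of all probes. The spread among *p85α−/−* cultures exceeded that among WT cultures for 7 of the 10 genes and for 49.6% of all probes. With 3 arrays an exact sign-flip test of 1 gene cannot give a p below 0.25.

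Of the 12 member probes, 7 were printed as 10 spots on each array, which gives the error among spots. The spread between arrays holds the culture together with amplification, labelling and hybridization, and these were not separated. The SD of the log2 ratio among spots of an array lay between 0.045 and 0.18 (median 0.087), whereas the SD between arrays lay between 0.38 and 2.35 (median 0.70). For all 7 the spread between arrays was larger than that among spots on any array, by 4.57-fold (*Il4*) to 19.1-fold (*Il6*) over the pooled spot SD. The same held for 230 of the 245 probes with 10 spots. *Ccl3*, *Ccl4* and *Il13* had 1 spot each and give no such value.

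**Figure D4:**
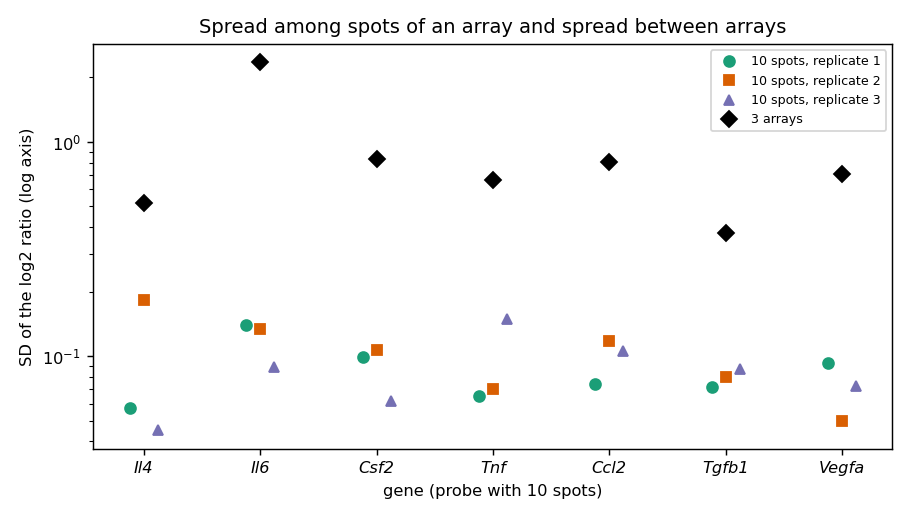
SD of the log2 ratio (y axis, log scale) among the spots of each array (coloured points) and between the 3 arrays (black diamonds) for the 7 member probes with 10 spots (x axis). Every diamond lies above the spot values of its gene.

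Other secreted factors were read from lists of genes. None of 19 other cytokines, 15 other chemokines and 10 other growth factors passed both limits, where 2.78% of all probes passed as higher and 1.66% as lower. On all 3 arrays 4 of these 44 genes were higher and 9 lower, beside 12.5% and 13.3% of all probes. Their pooled median log2 ratio was −0.043, near that of all probes, but the lists differed. The medians were −0.22 for the cytokines, 0.023 for the chemokines and −0.11 for the growth factors. Of the 19 cytokines, 1 was higher and 6 were lower on all 3 arrays. Their means were above 0 for 6 and below for 13, where 44.8% of all probes were above 0. Among 18 receptor genes for the members, *Il4ra*, which encodes the receptor chain used by IL-4 and IL-13, alone passed. Its WT levels were 8.88, 9.24 and 8.75 and its *p85α−/−* levels 13.24, 13.44 and 9.68, so every *p85α−/−* level was above every WT level. That held for 2 of the 18 receptor genes, and the reverse for 1, beside 4.54% and 5.94% of all probes. The mean log2 ratio of *Il4ra* was 3.16 ± 1.94 (unadjusted p = 0.0232, adjusted p = 0.908 by limma), and it did not pass without replicate 1 or without replicate 2.

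Of 9 genes for decay of cytokine mRNAs and processing of the proteins, 2 passed as higher and 1 as lower, beside 2.78% and 1.66% of all probes. *Zfp36l1*, which encodes a protein that promotes decay of AU-rich mRNAs, was higher with a log2 ratio of 1.35 ± 0.66 (unadjusted p = 0.0222 by limma), and its other probe gave 1.06. *Elavl1*, which encodes the mRNA-stabilizing protein HuR, was higher at 1.84 ± 1.29 (unadjusted p = 0.0391 by limma), while its other probes gave 0.38 and 0.21. *Khsrp*, which encodes another mRNA decay factor, was lower at −1.02 ± 0.54 (unadjusted p = 0.0377 by limma), but was 0.18 with median centring. Its other probe averaged −0.70 without keeping one sign, at −0.068, 0.30 and −2.33 on replicates 1 to 3. The adjusted p by limma was 0.908 for the brightest probe of each gene. Of 10 alternative settings, *Il4ra* passed under 8, *Zfp36l1* under 7, *Elavl1* under 5 and *Khsrp* under 4. *Zfp36l1* no longer passed without replicate 2 or without replicate 3, and *Elavl1* and *Khsrp* without replicate 1 or without replicate 3. None of 19 transcription factor genes that act on cytokine promoters passed, though 1 did with processed signals and 4 with median centring.

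Marker lists of other cell types were read beside the members. Macrophage markers (10 genes), which matter for *Ccl2*, *Ccl3*, *Ccl4* and *Tnf* because macrophages make them too, had 0 genes past the limits (2.78% and 1.66% of all probes passed as higher and as lower) and summed levels of 4604 to 9281 in WT and 4550 to 7409 in *p85α−/−* cultures. Basophil (5 genes), T cell (9 genes) and dendritic cell (6 genes) markers also had 0. Of the macrophage markers 0 were higher and 2, *Adgre1* (−1.39) and *Csf1r* (−1.01), lower on all 3 arrays, beside 12.5% and 13.3% of all probes. Without replicate 3 *Csf1r* was −0.24. Means were above 0 for 6 of the 10 macrophage markers and below 0 for 4, with a median of 0.073. *Adgre1* and *Csf1r* thus had the sign of *Tnf* while most of their list did not. The part of these markers in the *Tnf* value was not tested. The summed levels of the basophil, T cell and dendritic cell markers were 12681 to 42921, 4764 to 8797 and 3395 to 3840 in WT and 12686 to 39312, 3380 to 5981 and 2836 to 3855 in *p85α−/−* cultures, in the same order. The ranges of these 4 lists overlapped between genotypes, and those of the mast cell markers did not.

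**Figure D5:**
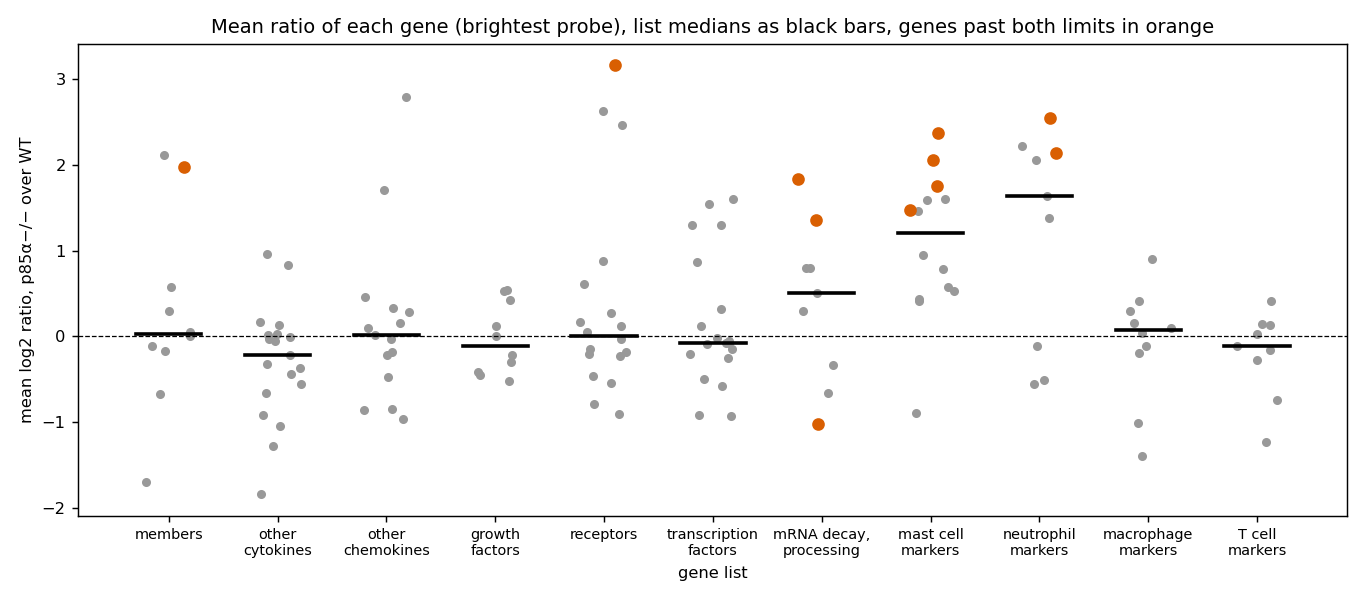
Mean log2 ratio of *p85α−/−* over WT (y axis) for the brightest probe of each gene in the lists (x axis), with list medians as black bars and genes past both limits in orange. The median lies near 0 for the members (0.030) and above it for mast cell (1.21) and neutrophil (1.64) markers, and the basophil and dendritic cell lists are not drawn.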

How the data were processed

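The authors deposited 1 Agilent Feature Extraction file per array, with the mean intensity and background intensity of each spot and a log10 ratio of red over green, and a table that lists, for each probe, a log10 ratio per array. Per the labels the tool was Agilent Feature Extraction (version not given). In that table, the ratios of replicate 1 equal the scanner's on 40929 of 40929 probes with 1 spot (tolerance 1.5e-05), but those of replicates 2 and 3 on 190 and 226, so it was not used. Quantile normalization and the limits of 1.5-fold and p under 0.05 are those the methods state.

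In R 4.3.3 with limma 3.58.1, background was removed from mean signals by normexp with an offset of 50, and quantile normalization was run over the 6 channels. Control and outlier spots were left out and spots of a probe averaged. Per-array log2 ratios were fitted with an intercept and eBayes, with Benjamini-Hochberg adjustment over 41157 probes, which pairs the cultures of an array. A gene was represented by its brightest probe. No spot was saturated (0). The named genes were all members, *Pik3r1*, mast cell markers, and list genes past both limits with one sign on all arrays. *Mpo*, *Adgre1* and *Csf1r* were named after their values were seen. The members and lists were chosen with earlier results of these data known. The procedure was tested on simulated ratios, with a pass mark set only where their spread was far below that of the data. The number of arrays limits the precision.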

Additional observations from a re-analysis of the deposited data

How the results depend on the processing

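Results were recomputed with median centring, loess (with Aquantile), processed signals of the software, unsubtracted background, outlier spots kept, dim probes left out, no replicate block, the methods' t-test (unpaired and paired), each replicate left out, and *Vegfa* as the mean of its 3 probes. The deposited table was not run, since few of its ratios of replicates 2 and 3 equal the scanner's ratio of the same probe. Across all probes, 12 alternatives (by limma or the methods' t-test) each gave 0 calls by adjusted p, the lowest adjusted p being 0.368 to 0.99995, while 1501 to 3165 probes had an unadjusted p under 0.05. Of 110 values of members under alternatives, 100 kept their direction and their side of the limits, though 35 leave the ratio as it was (such as a mean over probes for a gene with 1). *Ccl3* passed under all 11 alternatives run with limma, 4 of which left its ratio as it was, from 1.74 (loess) to 3.87. With no replicate block *Ccl3* had an unadjusted p of 0.0350 and 1809 probes passed both limits against 1829. This fit without pairing changed no member's call, while *S100a8*, *S100a9*, *Zfp36l1* and *Elavl1* (unadjusted p of 0.219, 0.201, 0.177 and 0.0502) no longer passed. With loess *S100a8*, *Elavl1* and *Cma1* did not pass (0.0531, 0.0591 and 0.0502). The mean over its probes put *Vegfa* at −0.73. The methods' t-test gave 1125 probes (unpaired) and 819 (paired), and 0 and 1 members. Median centring put 2692 probes past both limits, against 1829 in the main setting, so more calls are found on it in any list. It gave 3 members (*Ccl4* at 3.19 and *Tgfb1* at 1.37 besides *Ccl3*), a member median of 0.57, *Ccl2* at 0.82 and *Khsrp* at 0.18. The all-probe median was 0.090 in place of −0.049. Past both limits it also put 1 other cytokine, 2 growth factors, 4 receptors, 4 transcription factors, 7 mast cell, 4 neutrophil and 1 basophil markers. With processed signals *Csf2* was −0.060 and *Il6* 0.44. Leaving out 1 replicate gave 1557 to 3165 probes (3165 without replicate 2), 1 to 2 members (2 without replicate 2, by *Il6*), 4 to 7 members above 0 and a member median of −0.15 (without replicate 3) to 0.40 (without replicate 2). By leave-one-out *Ccl2* ranged from −0.62 to 0.14, *Csf2* from −0.32 to 0.50, *Il13* from −0.28 to 0.30, *Il4* from 0.0041 to 0.49, *Mpo* from −0.24 (without replicate 3) to 4.15 (without replicate 2, past both limits) and *Il6* from −0.80 to 1.24, with the sign turned for *Ccl2* without replicate 1, *Csf2* without replicate 1 (−0.015) or 3, *Il13* without replicate 3 and *Il6* without replicate 2. *Adgre1* passed both limits without replicate 3 (−1.96) and with no replicate block. The causes were not tested.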
